A study of Homo sapiens with 4 samples.

Results

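Matricellular proteins are secreted into the extracellular matrix but act mainly as signals for cells rather than as scaffold. The genes examined were THBS1, THBS2 and THBS3, SPARC, TNC, POSTN, CCN1 and CCN2, together with FN1, the gene of fibronectin, and TGFBI, an adhesion protein of the matrix. They were chosen by name, with earlier results of these data known. Every probe set that the array's annotation gives to them alone was taken, which gave 10 of 18132 genes and 44 of 49293 probe sets. No probe set of these genes was shared with another gene. RNA of UM1 cells, an established human line derived from a squamous carcinoma of the tongue, was measured on 4 Affymetrix arrays after 7 days in 16.7 mM glucose (high glucose, 2 arrays) or 5.6 mM glucose (normal glucose, 2 arrays). The labels name no other treatment or genetic change, and both groups come from this 1 line. The values are log2 expression values per probe set from RMA, so a difference of 1 is a change of 2-fold, and a gene's value is that of its brightest probe set unless stated otherwise.

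Thrombospondins are large secreted glycoproteins that bind calcium, integrins and CD47, and THBS1 can activate latent TGF-beta. SPARC binds collagen and loosens cell adhesion. Tenascin C, the product of TNC, and periostin, the product of POSTN, are deposited in healing wounds and in tumour stroma. CCN1 and CCN2, formerly CYR61 and CTGF, are known targets of the transcriptional co-activator YAP, which binds DNA through TEAD factors, and of TGF-beta. Fibronectin forms fibrils to which cells attach through integrins, and TGFBI was named for its induction by TGF-beta.

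In high glucose, 8 of the 10 genes were higher than in normal glucose, 1 was lower and 1 was not called (limma, threshold 0.05 on the p adjusted over all genes). Among all 18132 genes, 15.5% were called higher and 22.2% lower, or 37.7% in either direction. The rise exceeded 2-fold in 7 of the 10 genes, against 6.38% of all genes, and none was lower by more than 2-fold, against 5.48% of all genes. The median log2 difference of the 10 genes was 2.54, against -0.03 for all genes. THBS1, SPARC and TGFBI belong to the larger changes of the series, with 0.325%, 0.276% and 0.678% of all genes having a larger positive difference. The other 3 genes were THBS2, with at least a 1.63-fold rise, POSTN and THBS3. The values of the groups did not overlap in 10 of 10 genes, a pattern that 64.8% of all genes also showed.

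**Figure D1:**
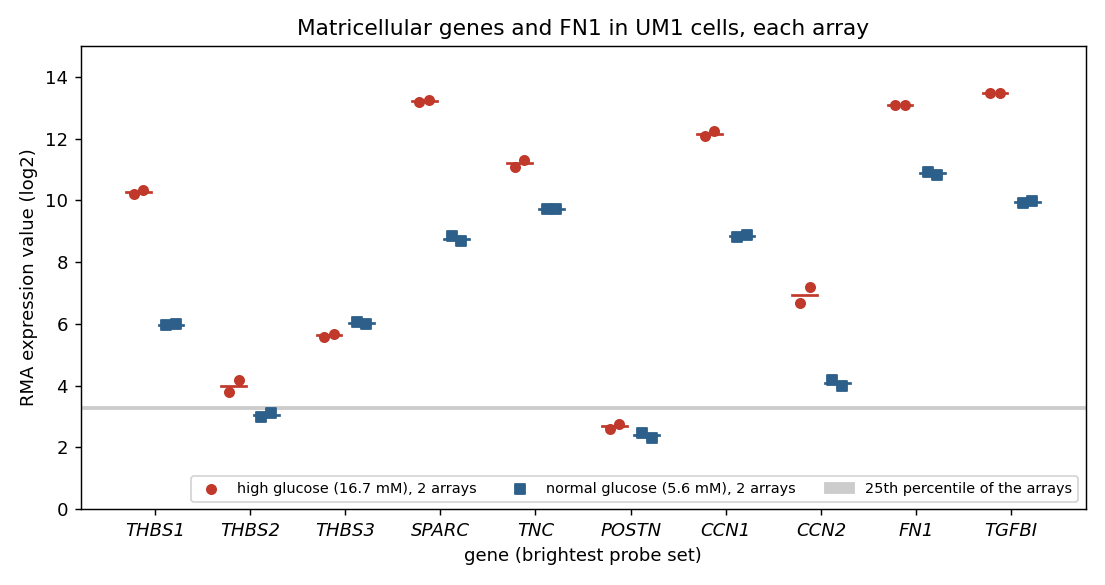
RMA expression values (log2) of the brightest probe set of each gene on each array, with circles for high glucose, squares for normal glucose and short lines for group means. The grey band spans the 25th percentiles of the arrays, and POSTN lies under it in both groups, whereas 7 genes are far higher in high glucose.

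The sequences in front of some of these genes are shown because CCN1 and CCN2 are known targets of TEAD factors, and the letters bound by these factors can be looked for directly. The windows hold the 250 bases before the RefSeq start of the gene (GRCh38.p14), 5′ to 3′ on the strand of the gene. RefSeq windows were found for 9 of the 10 genes, CCN1 being the one not listed. They are 10 windows, since THBS3 has 2 starts. Capitals mark GGAATG, the core letters of TEAD binding, TGACGTCA, the cyclic AMP response element, and TATAAA, the TATA word, each searched on both strands, so that CATTCC is GGAATG on the other strand.
CCN2, chr6:131951373-131951622, minus strand: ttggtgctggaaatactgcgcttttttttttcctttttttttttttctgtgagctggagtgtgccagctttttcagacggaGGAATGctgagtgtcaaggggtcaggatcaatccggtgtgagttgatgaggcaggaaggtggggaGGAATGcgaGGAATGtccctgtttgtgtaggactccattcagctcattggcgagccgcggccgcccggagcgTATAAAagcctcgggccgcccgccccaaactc
THBS1, chr15:39580829-39581078, plus strand: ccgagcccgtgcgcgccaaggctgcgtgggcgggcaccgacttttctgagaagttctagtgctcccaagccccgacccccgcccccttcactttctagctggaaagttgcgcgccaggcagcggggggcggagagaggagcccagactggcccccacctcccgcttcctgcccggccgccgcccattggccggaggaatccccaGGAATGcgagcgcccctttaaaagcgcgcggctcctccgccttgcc
SPARC, chr5:151686916-151687165, minus strand: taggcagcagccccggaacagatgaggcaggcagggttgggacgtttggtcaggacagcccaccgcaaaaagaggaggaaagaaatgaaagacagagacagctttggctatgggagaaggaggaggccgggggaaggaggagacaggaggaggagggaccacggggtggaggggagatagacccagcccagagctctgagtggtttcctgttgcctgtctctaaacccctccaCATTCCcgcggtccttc
THBS2, chr6:169253847-169254096, minus strand: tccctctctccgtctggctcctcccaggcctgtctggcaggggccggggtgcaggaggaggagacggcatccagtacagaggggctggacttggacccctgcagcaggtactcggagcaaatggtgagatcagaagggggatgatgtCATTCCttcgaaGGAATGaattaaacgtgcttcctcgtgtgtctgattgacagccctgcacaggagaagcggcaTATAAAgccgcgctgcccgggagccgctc
FN1, chr2:215436069-215436318, minus strand: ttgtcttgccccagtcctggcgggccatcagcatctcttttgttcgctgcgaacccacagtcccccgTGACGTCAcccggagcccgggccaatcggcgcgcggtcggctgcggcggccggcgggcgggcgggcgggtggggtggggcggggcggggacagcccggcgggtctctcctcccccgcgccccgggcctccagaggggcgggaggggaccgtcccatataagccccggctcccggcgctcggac

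GGAATG stood in 4 of the 10 windows, those of CCN2, SPARC, THBS1 and THBS2, whereas 11.9% of all 35116 windows of this length held it. The window of CCN2 held 3 copies, at 169, 104 and 95 bases before the start, and 29 of all windows held 3 or more. THBS2 held 2 copies, at 103 and 91 bases, THBS1 had 1 at 46 bases and SPARC had 1 at 17 bases. Of the 9 genes, FN1 alone held TGACGTCA, which stood in 1.65% of all windows. TATAAA was found in CCN2, THBS2 and POSTN, against 10.7% of all windows. Another word, TGANTCA, the AP-1 site, was found in POSTN alone of these genes (6.57% of all windows). GGGCGG, the GC box, was found in 7 of the 10 windows, against 42.6% of all windows. TGFBI, TNC and THBS3 held none of the words in capitals, in either window for THBS3. These are matches of letters in a short window, and no binding was measured.

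Of the thrombospondins, THBS1 rose strongly, THBS2 was low in both groups and THBS3 was lower in high glucose. THBS1, which acts on cells through CD47 and integrins, had values of 10.19 and 10.34 in high glucose, against 5.95 and 5.99 in normal glucose. Its log2 difference was 4.29 (SE 0.0932, n = 2 arrays per group, 95% interval 4.06 to 4.53, adjusted p = 5.56e-06 from limma), which is 19.6-fold. The 5 probe sets of THBS1 were each called higher. However, their differences varied with brightness. The 3 brighter ones were higher by 4.29, 3.07 and 4.42 on the log2 scale, and the fourth by 1.44. The dimmest was at least 2.65-fold higher against the 25th percentile of the arrays. It had values of 4.40 and 4.99 in high glucose, against 3.11 and 3.29 in normal glucose, at or under the 25th percentile of each normal glucose array. By the RefSeq gene table THBS1 overlaps FSIP1 and the intronic transcript THBS1-IT1, and the part of this in the spread of its probe sets was not tested.

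THBS2, an inhibitor of angiogenesis with a structure close to THBS1, was barely detected. Its values were 3.80 and 4.18 in high glucose, against 3.001 and 3.12 in normal glucose, where both arrays lay under their 25th percentile (3.26 and 3.31). THBS2 was therefore at least 1.63-fold higher, taken against that percentile (log2 difference of the measured values 0.93, SE 0.145, adjusted p = 0.00393 from limma). Its 3 probe sets were each called higher, and with normal glucose at or under the 25th percentile on each of them they were at least 1.63-fold, 1.48-fold and 1.22-fold higher. The call was lost without normal glucose replicate 1 (adjusted p = 0.0535 from limma) and by the methods' t-test after adjustment (adjusted p = 0.126).

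THBS3, which assembles as a pentamer like COMP, went the other way. It had values of 5.57 and 5.69 in high glucose, against 6.07 and 5.99 in normal glucose. The log2 difference was -0.40 (SE 0.0923, adjusted p = 0.0172 from limma), so THBS3 was lower by a factor of 1.32. The other probe set of THBS3 did not pass, with 4.61 and 4.62 in high glucose, against 4.66 and 4.68 in normal glucose (log2 difference -0.06, adjusted p = 0.679 over all probe sets, limma). The call of THBS3 ended on leaving out any 1 of the 4 arrays, with an adjusted p from limma between 0.0519 and 0.0986. THBS3 overlaps MTX1 and the antisense transcript THBS3-AS1 in the gene table.

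SPARC rose on each of its probe sets by a similar amount. Its values were 13.17 and 13.26 in high glucose, against 8.85 and 8.68 in normal glucose. The log2 difference was 4.45 (SE 0.0993, 95% interval 4.21 to 4.70, adjusted p = 5.56e-06 from limma), or 21.9-fold. Of its 8 probe sets, 8 were called higher, by 3.94 to 4.64 on the log2 scale, which is 15.4-fold to 24.9-fold. The lowest of these came from the dimmest probe set, at 9.25 and 9.25 in high glucose and 5.32 and 5.29 in normal glucose. The 95% intervals of SPARC and THBS1 overlapped, so the order of these 2 genes was not resolved.

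**Figure D2:**
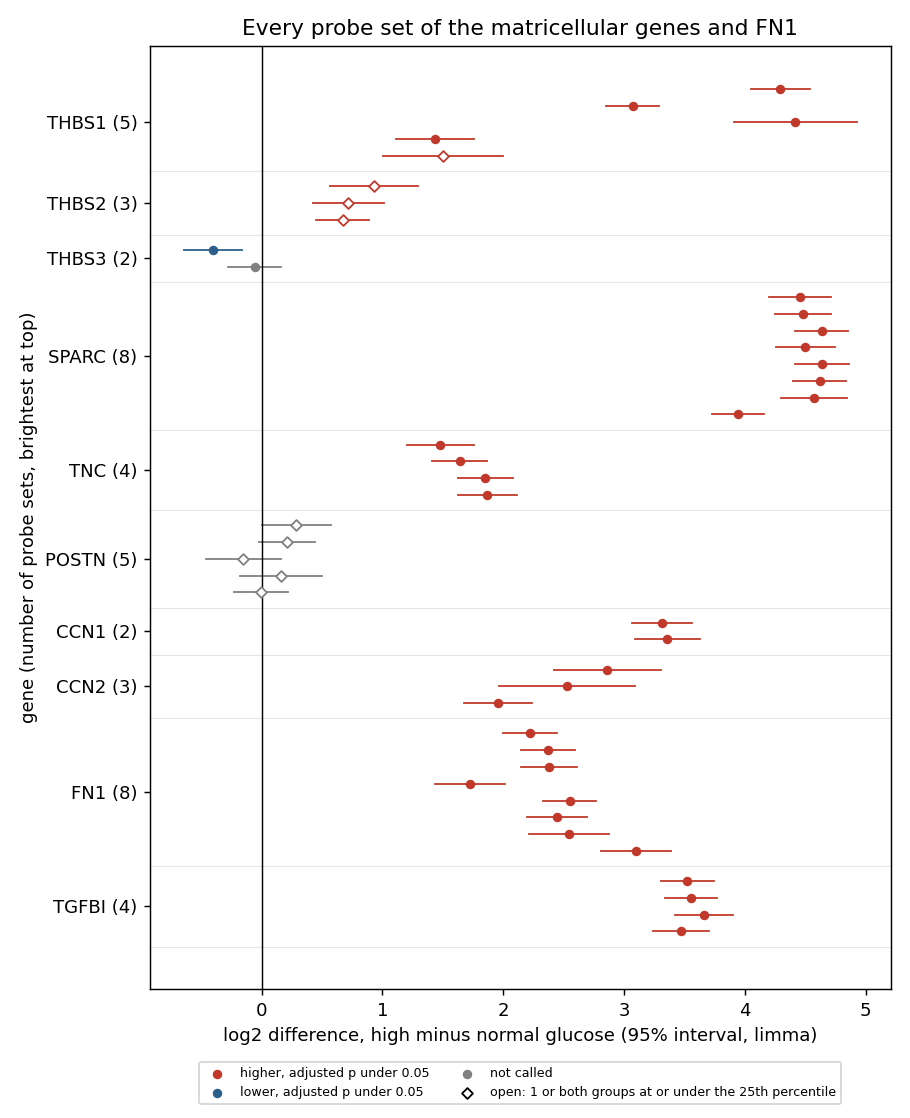
Log2 difference between high and normal glucose (horizontal axis, 95% interval from limma) for each of the 44 probe sets, grouped by gene with the brightest on top. Open diamonds mark probe sets with a group at or under the 25th percentile, and the 8 probe sets of SPARC lie between 3.94 and 4.64, whereas the 5 of THBS1 spread from 1.44 to 4.42.

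TNC, which encodes a large hexameric glycoprotein that interferes with the binding of cells to fibronectin, rose less. It had values of 11.08 and 11.32 in high glucose, against 9.72 and 9.72 in normal glucose. This was a log2 difference of 1.48 (SE 0.109, 95% interval 1.21 to 1.75, adjusted p = 0.000215 from limma), or 2.79-fold. The 4 probe sets were each called higher, by 1.48 to 1.87 on the log2 scale, and the brightest of them gave the smallest difference. TNC was already well above the array median in normal glucose, where the medians were 5.01 and 5.02.

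POSTN, whose product binds integrins and helps to crosslink collagen, lay near the bottom of the range in both groups. Its brightest probe set had values of 2.59 and 2.77 in high glucose, against 2.48 and 2.30 in normal glucose. The 5 probe sets lay at or under the 25th percentile in both groups, and none was called by limma, against 1 at an unadjusted p under 0.05. For the brightest, the log2 difference was 0.29 (95% interval 0.01 to 0.56, adjusted p = 0.098 from limma), and no fold is given since both groups were below the percentile. The 5 probe sets did not share a direction, with log2 differences between -0.15 and 0.29.

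Both CCN genes rose. CCN1, a ligand of integrins and an immediate-early gene, had values of 12.08 and 12.24 in high glucose, against 8.82 and 8.87 in normal glucose. The log2 difference was 3.32 (SE 0.0955, 95% interval 3.08 to 3.55, adjusted p = 9.8e-06 from limma), or 9.96-fold. The other probe set of CCN1 was higher by 3.36, at 11.97 and 11.92 in high glucose and 8.69 and 8.48 in normal glucose. CCN2, a driver of matrix deposition in fibrosis, had values of 6.69 and 7.19 in high glucose, against 4.18 and 3.98 in normal glucose. It rose 7.27-fold (log2 difference 2.86, SE 0.179, 95% interval 2.42 to 3.31, adjusted p = 0.000119 from limma). The arrays of a group lay further apart for CCN2 than for CCN1 in both groups. Its 3 probe sets were higher by 2.86, 2.53 and 1.96 on the log2 scale. By the methods' t-test the adjusted p of CCN2 was 0.0513. CCN2 overlaps the transcript CCN2-AS1 in the gene table.

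FN1, the gene of fibronectin, had values of 13.08 and 13.10 in high glucose, against 10.91 and 10.83 in normal glucose. It rose 4.66-fold (log2 difference 2.22, SE 0.0865, 95% interval 2.01 to 2.44, adjusted p = 2.26e-05 from limma). Of the 8 probe sets, 8 were called higher, and their differences spread from 1.72 to 3.10 on the log2 scale. The smallest difference came from a bright probe set, with 12.24 and 12.45 in high glucose and 10.54 and 10.71 in normal glucose. The highest came from the dimmest, with 7.65 and 7.73 in high glucose and 4.72 and 4.46 in normal glucose. The 95% intervals of these 2 probe sets, 1.43 to 2.01 and 2.81 to 3.39, did not overlap. Fibronectin is made in several splice forms, but the annotation gives these probe sets only to the gene, so the forms were not told apart. FN1 overlaps ATIC and FN1-DT in the gene table. In the same table SPARC overlaps CLMAT3, THBS2 overlaps THBS2-AS1 and LOC124901470, and TNC overlaps LOC124902256 and LOC124902255.

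TGFBI, which binds collagen and integrins, reached values of 13.46 and 13.48 in high glucose, against 9.91 and 9.98 in normal glucose. The log2 difference was 3.52 (SE 0.0845, 95% interval 3.31 to 3.73, adjusted p = 6.13e-06 from limma), or 11.5-fold. Its 4 probe sets differed little from each other, with rises of 3.47 to 3.66 on the log2 scale. In the order of the differences, the intervals of TGFBI and CCN1 overlapped, and so did those of CCN1 and CCN2. Those of CCN2 (from 2.42) and FN1 (up to 2.44) just met, as did those of TNC (from 1.21) and THBS2 (up to 1.29), whereas FN1 and TNC lay apart.

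**Figure D3:**
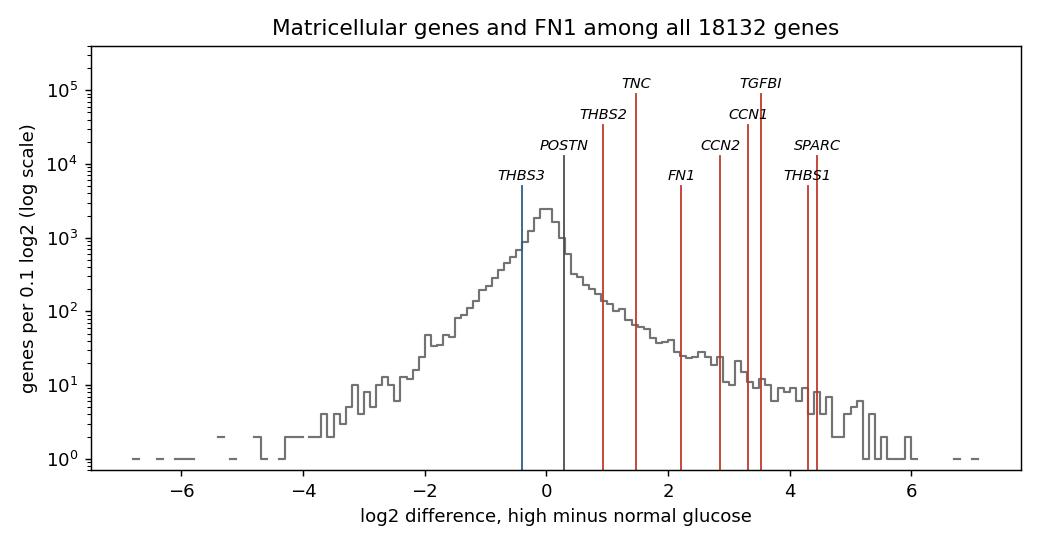
Number of genes (vertical log axis, per 0.1 log2) at each log2 difference between high and normal glucose for all 18132 genes, with vertical lines at the 10 genes (red called higher, blue called lower, grey not called). The 7 genes from TNC to SPARC lie in the right tail, THBS2 lies to the left of TNC, and THBS3 and POSTN lie near the centre.

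Over all probe sets, 37 of the 44 were called higher, 1 was called lower and 6 were not called (limma, adjusted over all probe sets). Of all 49293 probe sets, 15.1% were called higher and 20.4% lower, or 35.5% in either direction. By the methods' t-test after adjustment, 6 of the 10 genes were higher and 0 lower, against 7.43% and 9.19% of all genes. At an unadjusted p under 0.05 that test had THBS3 lower. An exact two-sided permutation test of 1 gene cannot go below p = 0.333 with 4 arrays. The calls of CCN2, THBS2 and THBS3 were made by limma, which borrows the estimate of spread from other genes, and not by the methods' t-test after adjustment. The labels call the arrays biological replicates and do not name separate cultures, so the p-values measure the spread between these arrays. In such bulk RNA, fewer cells of a type and less RNA per cell cannot be told apart.

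Other matrix glycoproteins related to these genes were less uniform. Of 41 measured, 15 rose, 2 fell and 24 did not pass, with a median log2 difference of 0.13, against -0.03 for all genes. These are shares of 36.6% higher and 4.88% lower, against 15.5% and 22.2% of all genes. EFEMP1, a fibulin of the extracellular matrix, had values of 8.93 and 8.91 in high glucose, against 3.66 and 4.29 in normal glucose (30.8-fold, adjusted p = 2.64e-05 from limma). MATN2, a matrilin, was 14.1-fold higher, FSTL1, a secreted relative of SPARC, 8.32-fold, and ECM1 4.43-fold. Other relatives of the THBS, CCN and tenascin families varied. THBS4, TNN and CCN4 were at or under the 25th percentile in both groups, and COMP, TNR and CCN5 were not called. CCN6 was 3.19-fold higher, at 6.48 and 6.52 in high glucose and 4.73 and 4.92 in normal glucose. CCN3 was 1.24-fold higher (adjusted p = 0.0397 from limma), at 3.82 and 3.70 in high glucose and 3.46 and 3.43 in normal glucose. These values of CCN3 lie little above the 25th percentiles of the arrays, which were 3.26 to 3.32. LTBP3 and EMILIN2 were the 2 lower genes, with log2 differences of -0.53 and -0.44. CCN3, CCN6, LTBP3, EMILIN2 and the genes that did not pass were named after their values were seen.

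Several receptors of these proteins rose as well. Of 20 measured receptors and binding partners, 12 were higher, 1 was lower and 7 did not pass. These are shares of 60% higher and 5% lower, against 15.5% and 22.2% of all genes. The median log2 difference of the list was 0.58, against -0.03 for all genes. ITGA5, whose integrin with the beta 1 subunit is the classical fibronectin receptor, had values of 10.14 and 10.08 in high glucose, against 8.18 and 8.04 in normal glucose (adjusted p = 4.20e-05 from limma). ITGAV, which pairs with several beta subunits to bind fibronectin and TGFBI, rose 6.19-fold, at 10.40 and 10.68 in high glucose and 7.79 and 8.03 in normal glucose. SDC1, a syndecan, rose 8.48-fold, and CD47, a receptor of THBS1, 2.96-fold. In contrast, CD36, another THBS1 receptor, lay at or under the 25th percentile in both groups. CALR, a chaperone that also serves as a THBS1 co-receptor, was the lower gene, by a factor of 1.64. CD36 and CALR were named after their values were seen.

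**Figure D4:**
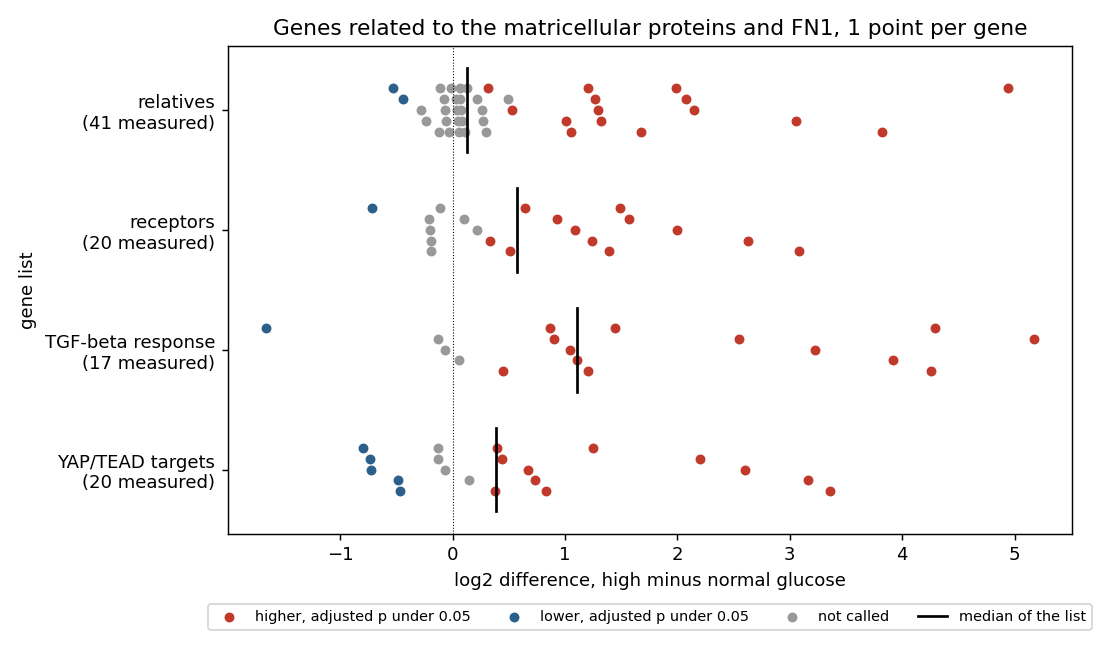
Log2 difference between high and normal glucose (horizontal axis) of each measured gene in 4 lists, with black bars at the list medians (0.13, 0.58, 1.11 and 0.38 from top to bottom). Points are red where called higher, blue where called lower and grey where not called, and the highest point of the TGF-beta list is TAGLN at 5.17.

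Genes that respond to the same regulators were counted beside the matricellular genes. Of 17 measured genes of the TGF-beta response, 13 were higher, 1 was lower and 3 did not pass, with a median log2 difference of 1.11. These are shares of 76.5% higher and 5.88% lower, against 15.5% and 22.2% of all genes. TAGLN, an actin-binding protein, COL4A1, a basement membrane collagen, LOXL2, a lysyl oxidase, and TPM1, a tropomyosin, rose 36.1-fold, 19.6-fold, 19.1-fold and 15.1-fold. TIMP1, an inhibitor of matrix metalloproteinases, was lower by a factor of 3.16. Of 20 measured targets of YAP and TEAD, without CCN1 and CCN2, 11 rose, 5 fell and 4 did not pass, with a median of 0.38. The 11 higher genes are a share of 55%, against 15.5% of all genes. The 5 lower genes are a share of 25%, near the 22.2% of all genes called lower. That share of all genes includes dim ones, and with these left out 3972 genes were lower, against 4023 with them. RBMS3, CCDC80, TGFB2 and F3 rose 10.3-fold, 8.94-fold, 6.07-fold and 4.60-fold. AMOTL2 and GADD45A, named after their values were seen, were lower by factors of 1.74 and 1.65, and ANKRD1, a target often read together with CCN1 and CCN2, lay at or under the 25th percentile in both groups. COL1A1 stands on the lists of the TGF-beta response and of fibroblast markers, and FBLN1 on those of relatives and of fibroblast markers. LTBP2 stands on those of relatives and of the TGF-beta response, and IGFBP3 on those of TGF-beta and YAP/TEAD.

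Markers of cell types and RNA quality were compared as well. Matricellular genes are also expressed by fibroblasts, and of 15 fibroblast markers 6 rose and 9 did not pass by limma. The 6 are a share of 40%, against 15.5% of all genes, and 0 were lower, against 22.2% of all genes. The mean log2 level over the 15 was 5.61 and 5.52 in high glucose, against 4.29 and 4.23 in normal glucose. COL3A1 and FAP led this rise (130.6-fold and 62.6-fold), followed by COL1A1 and COL5A1 (5.86-fold and 5.24-fold), whereas LUM, PDGFRA, THY1 and DPT lay at or under the 25th percentile in both groups. Of 10 endothelial markers, 2 were higher (ERG and TEK, 2.30-fold and 2.05-fold) and 8 did not pass by limma. The 2 higher ones are a share of 20%, near the 15.5% of all genes called higher, and neither was tested once dim genes were left out. EMCN lay at or under the 25th percentile in both groups. Their mean level was 4.26 and 4.16 in high glucose, against 3.97 and 3.99 in normal glucose. Of the keratins of squamous epithelium, KRT5 and KRT14 were abundant in both groups. KRT15 was lower in normal glucose, at 6.49 and 6.59, against 11.45 and 11.52 in high glucose. KRT5 had values of 13.89 and 13.92 in high glucose, against 9.98 and 9.89 in normal glucose. Of 13 squamous and epithelial markers, 9 rose, 3 fell and 1 did not pass. The 9 higher ones are a share of 69.2%, against 15.5% of all genes. The 3 lower ones are a share of 23.1%, near the 22.2% of all genes, dim ones included, called lower. Among the higher ones were KRT15, KRT14, KRT5 and SFN at 30.8-fold, 16.97-fold, 15.6-fold and 9.37-fold. The lower ones were EPCAM, an adhesion protein of simple epithelia, KRT18, a keratin of simple epithelia, and LAMB3, a laminin chain, lower by factors of 8.99, 4.64 and 2.33. The mean level of the 13 was 10.90 and 10.93 in high glucose, against 9.46 and 9.46 in normal glucose. For the RNA quality controls, the log2 signal at the 3′ end minus that at the 5′ end was 0.35 and 0.42 for beta-actin in high glucose, against 0.71 and 0.74 in normal glucose. For GAPDH it was 0.08 and 0.12 in high glucose, against 0.24 and 0.14 in normal glucose. The part of these measures in the differences of the matricellular genes was not tested.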

How the data were processed

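RNA of UM1 cells in high or normal glucose was hybridised to 4 arrays, 2 per group. Log2 values per probe set were deposited by the authors, who used GCOS and RMA, which corrects background and normalises between arrays, of versions not given in the sources used here. In the methods the platform is the U133 Plus 2.0 array, but the probe set identifiers are those of PrimeView, whose annotation was used. The 102 control probe sets were left out of the tests. Each of 18132 genes was represented by its brightest probe set annotated to it alone. Groups were compared with limma 3.58.1 in R 4.3.3 and Benjamini-Hochberg adjustment over all genes, and again over all probe sets. Tables were made with Python 3.11.15 and pandas 2.3.3.

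The matricellular genes, the 7 lists of related and marker genes and the tests were chosen with earlier results of these data known. Every matricellular gene is named, and up to 4 called genes of each list with the largest difference. TIMP1, EPCAM, KRT18, LAMB3 and the list genes named as at or under the 25th percentile were picked after their values were seen. A gene at or under the 25th percentile on each array of a group has a fold only as a lower bound. Genes of the lists with no probe set of their own were not analysed here. Promoter letters came from RefSeq. The procedure was tested on simulated data of high against normal glucose with 18132 genes, and recovered 11.9%, 80.6% and 98.5% of genes changed 1.5-fold, 2-fold and 4-fold. Of its 137 calls, 10 were false. Only 67, 67 and 66 genes were changed at these folds, whereas 6831 genes were called in the data. The simulated rates therefore need not hold for the data. Only 4 arrays limit the precision. The alternatives were other probe set summaries, filters, scalings and tests, the replicate number as a block, and each array left out.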

Additional observations from a re-analysis of the deposited data

How the results depend on the processing

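Under 15 alternatives, the calls of THBS1, SPARC, TNC, CCN1, FN1 and TGFBI stayed on the same side of the threshold, and POSTN stayed uncalled wherever it was tested. The log2 differences ranged from 4.37 to 4.59 for SPARC, 2.94 to 4.37 for THBS1, 3.46 to 3.61 for TGFBI, 3.24 to 3.40 for CCN1, 2.16 to 2.42 for FN1 and 1.36 to 1.75 for TNC. The count of higher genes, 8, was 6 by the methods' t-test after adjustment (without CCN2 and THBS2), 7 without normal glucose replicate 1 (without THBS2) and 6 without the dimmer genes, where CCN2, THBS2 and POSTN were not tested but THBS3 was. By the methods' t-test at the unadjusted thresholds 8 genes were higher and 0 lower, against 1768 higher and 2218 lower of all 18132 genes. Without the dimmer genes, limma called 2414 of all genes higher and 3972 lower, against 2808 and 4023 with them.

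The count of lower genes, 1 (THBS3), was 0 with the median of probe sets (adjusted p = 0.0802 from limma), by the methods' t-test after adjustment (0.0987), at the methods' fold thresholds and with any 1 array left out. At an unadjusted p under 0.05, THBS3 was lower in each of these fits. The count of lower probe sets, 1, was likewise 0 by the methods' t-test, at the methods' thresholds and with any 1 array left out, and 0 with the replicate block, against 1 at an unadjusted p under 0.05 (2 by the methods' t-test). With the replicate block the adjusted p of THBS3 was 0.0477, and no call of the 10 genes changed. Equally numbered arrays did not deviate together (r = -0.00457 over 18132 genes). This r rests on 1 difference between arrays per group, so it cannot settle whether the cultures were run in pairs.

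Over all genes, the methods' t-test called 1347 higher and 1667 lower after adjustment, against 2808 and 4023 with limma, and the methods' thresholds gave 2433 lower. Over all probe sets, it called 2911 higher and 3198 lower, against 7449 and 10068, with 6269 lower at the methods' thresholds and 6084 to 6548 lower with an array left out. The YAP/TEAD list had 7 higher and 3 lower genes by the methods' t-test, 7 higher without high glucose replicate 1, and 3 lower at the methods' thresholds and without high glucose replicate 2 or normal glucose replicate 2. The 2 lower relatives were 0 or 1 under the methods' test and thresholds, the replicate block and 3 of the 4 left-out arrays. The lower count of the receptor list was 2 with the median of probe sets, without _x_at probe sets and without dim genes, and 0 by the methods' t-test. That of the TGF-beta list was 2 with the mean or median of probe sets and without _x_at probe sets. The endothelial markers had 0 higher without dim genes and 1 by the methods' t-test, where 1 fibroblast marker was lower. The causes were not tested. Dim probe sets near the array background limit THBS2 and POSTN.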
